A study of Mus musculus with 6 samples.

Results

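The genes described here carry the symbols of mitochondrial ribosomal proteins. They were taken as every listed gene whose symbol starts with Mrpl or Mrps followed by a digit, leaving out symbols marked as pseudogenes, of which there were 0. This gave 78 of the 21899 listed genes, and all 78 had enough counts to be tested. Among them is Mrps36, which belongs to the 2-oxoglutarate dehydrogenase complex and not to the ribosome. It stays in every count, sum and median over the 78. The mitochondrial ribosome is the machine that translates the few mRNAs encoded in mitochondrial DNA, all of which specify subunits of the respiratory chain or of ATP synthase. Its RNA comes from the mitochondrial genome, while its proteins are encoded in the nucleus, made in the cytosol and imported. T cells that are activated enlarge their mitochondria and depend on mitochondrial translation for respiration and for several of their effector functions.

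Bulk mRNA sequencing was available for 6 samples of induced regulatory T cells, 3 labelled iWT (WT) and 3 labelled Dlst-Treg iKO (KO). Dlst makes the E2 core of 2-oxoglutarate dehydrogenase, an enzyme complex of the TCA cycle, and the KO label names an inducible knockout of it in Treg cells. Both groups had the same handling: spleen CD4+ T cells were grown for 2 days under Treg-inducing conditions with 4-hydroxytamoxifen, a drug commonly used to switch on inducible Cre recombinase. Cells positive for CD4, FoxP3-GFP and tdTomato-RFP were then sorted. The alleles, any Cre driver and the age and sex of the mice are not given here. No label says that replicates came from separate animals, so a p-value reflects only the scatter of these libraries, which may in part be technical. The comparison sets the mitochondrial ribosome's mRNAs in KO beside those in WT.

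Libraries held from 33590510 to 49772670 estimated counts. All 6 Treg and CD4 T cell markers (Cd3e, Cd4, Foxp3, Il2ra, Ctla4 and Ikzf2) were present in all 6 libraries. Ikzf2, a transcription factor of Treg cells, was at 30.6 to 37.3 CPM (counts scaled to a fixed library size) in WT and 21.3 to 23.0 CPM in KO and was called lower (log2 fold change -0.57, SE 0.09, edgeR adjusted p = 0.0366). That call was lost in 9 of 16 alternative settings, among them leaving out WT replicate 2 or 3 or any 1 KO replicate (adjusted p over all alternatives 2.0e-05 to 0.155). Cd4 was lower in each KO library than in any WT library (log2 fold change -0.19) and Foxp3 higher (0.26), and neither passed the test. Dlst, the targeted gene, was at 149 to 161 CPM in WT and 125 to 129 CPM in KO. Its log2 fold change of -0.26 (SE 0.05) missed the edgeR threshold (adjusted p = 0.0894), while DESeq2 called it lower. KO replicate 1 stood apart: the Y-linked Ddx3y was at 81.3 CPM there and at no more than 0.0256 CPM in the other 5 libraries. The Y-linked Eif2s3y, Kdm5d and Uty were at 82.9, 62.2 and 28.4 CPM there and at no more than 1.21 CPM in the others. KO replicate 1 thus held cells of a male animal and was no technical repeat of KO replicates 2 and 3. Sex was not balanced between the groups. The 9 neutrophil markers summed to 4.79 to 32.4 CPM in WT and 73.2 to 306 CPM in KO, highest in KO replicate 1. The 9 macrophage and monocyte markers summed to 20.1 to 31.4 CPM in WT and 98.0 to 377 CPM in KO, again highest in KO replicate 1, and the macrophage complement genes C1qa, C1qb and C1qc each stayed under 0.417 CPM in every library. The 5 B cell markers summed to 115 to 265 CPM in WT, highest in WT replicate 1, and to 151 to 186 CPM in KO. The 2 CD8 T cell markers, Cd8a and Cd8b1, summed to 42.9 to 76.2 CPM in WT and 86.0 to 102 CPM in KO. Their part in the results below was not tested. KO replicates 2 and 3 were the most alike pair, with a biological coefficient of variation of 2.97%, where other same-group pairs ran from 7.12% to 14.8%.

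Promoters of 69 members were found in RefSeq (GRCm38.p6), as windows from 250 bases before to 50 after the transcription start. The motifs of 4 factors known to act on nuclear genes for mitochondria were searched on both strands: GCGCANGCG for NRF1, CCGGAAG for ETS factors such as GABPA, AAGATGGCG for YY1 and CACGTG, the E-box bound by MYC. ETS letters stood in 25 of the 69 windows (36.2%), against 18.4% of the 9984 windows of tested genes. NRF1 letters stood in 16 (23.2%, against 13.9%), YY1 letters in 8 (11.6%, against 3.26%) and the E-box in 5 (7.25%, against 10.0%). In all, 43 of 69 members (62.3%) held at least 1 of the 4, against 37.9% of tested genes. A match is a description of the letters and not evidence of binding.

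The stretches below are shown because they belong to members whose values are given further on, Mrps12, Mrpl45, Mrpl12 and Mrpl52, and because they show both the motifs and a start region shared by neighbours. Capitals mark NRF1 or ETS letters, and each stretch ends before the first base of any gene annotated in GENCODE M21 (GRCm38).
Mrps12 and Sars2, chr7:28741822-28741967, plus strand, between the diverging starts of both genes: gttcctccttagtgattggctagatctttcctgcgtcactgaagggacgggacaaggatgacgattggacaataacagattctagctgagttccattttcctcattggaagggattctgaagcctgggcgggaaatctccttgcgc
Mrpl45, chr11:97315596-97315715, plus strand, NRF1 letters: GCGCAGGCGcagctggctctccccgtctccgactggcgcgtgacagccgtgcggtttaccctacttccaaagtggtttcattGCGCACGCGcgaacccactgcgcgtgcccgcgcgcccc
Mrpl12, chr11:120484517-120484612, plus strand, NRF1 letters: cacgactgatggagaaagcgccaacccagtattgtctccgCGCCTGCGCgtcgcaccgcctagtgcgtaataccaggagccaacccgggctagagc
Mrpl52, chr14:54426789-54426908, plus strand, ETS letters: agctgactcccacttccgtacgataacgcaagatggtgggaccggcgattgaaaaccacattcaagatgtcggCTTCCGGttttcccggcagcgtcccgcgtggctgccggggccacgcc
None of the 4 motifs lay in the stretch between Mrps12 and Sars2, although the full Mrps12 window, which reaches beyond it, held ETS letters.

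Every member was well covered, with between 400 and 4677 counts in each library. Levels between genes are compared in TPM, which also divides by gene length. Mean TPM over the 6 libraries ran from 12.4 for Mrpl47 to 228 for Mrpl30, an 18.5-fold span, with a median of 63.1. Most of these proteins are present in a ribosome as a single copy, while their mRNA levels were far from equal. The TPM order also rests on the gene lengths behind the deposited values, which were not stated. The ratio of CPM to TPM ran from 0.24 for Mrps21 to 3.49 for Mrps25. Mrpl30, Mrpl52 and Mrps6 had the highest mean TPM (228, 188 and 176) and Mrpl47, Mrpl57 and Mrpl19 the lowest (12.4, 13.5 and 15.0). In all, 15 members lay above 100 TPM and 6 under 20 TPM. In CPM, which takes no account of length, the span was 7.35-fold, from 11.9 for Mrps28 to 87.4 for Mrps5.

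The order of levels was nearly the same in WT and KO. Mean TPM of the 78 members in WT and KO correlated at r = 0.995 on a log2 scale, a description across genes that share their libraries. The largest move was that of Mrpl15, by 12 places of the 78. Summed over the family, TPM was 5818, 5257 and 5394 in WT replicates 1 to 3 and 5168, 5445 and 5311 in KO replicates 1 to 3. The sums were 5490 ± 292 TPM in WT and 5308 ± 139 TPM in KO (SD, n = 3 each) and the groups overlapped, with WT replicate 1 highest and KO replicate 1 lowest of all 6. In bulk RNA, fewer cells of a type and less RNA per cell cannot be told apart.

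**Figure D1:**
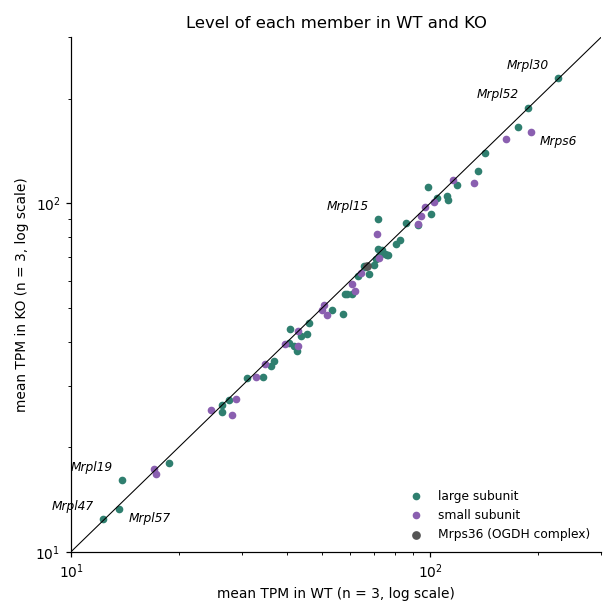
Mean TPM of each of the 78 members in WT (horizontal, log scale) and KO (vertical, log scale), with large-subunit genes in green, small-subunit genes in purple, Mrps36 in grey and the line of equal levels. Points follow the line from Mrpl47 (12.4 TPM) to Mrpl30 (228 TPM), and Mrpl15 is the point farthest above it near 80.9 TPM.

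No mitochondrial ribosomal protein mRNA passed the test between KO and WT: 0 of 78 were called higher and 0 lower by edgeR (quasi-likelihood, Benjamini-Hochberg adjusted p under 0.05 over 12768 genes). Of all tested genes 0.674% were called, 0.454% higher and 0.219% lower. At an unadjusted p under 0.05 there were 6 members (7.69%), 3 higher and 3 lower, against 15.1% of all tested genes, 8.47% higher and 6.6% lower. DESeq2 called 1 member, Mrpl15, where it called 3.81% of genes. KO and WT libraries did not overlap for 14 members, 4 with KO above and 10 with KO below, or 17.9% of the family against 22.8% of all tested genes (11.9% above and 10.9% below). Over both directions these shares lay under the background. By direction, the 4 members with KO above lay under it, and the 10 with KO below lay near it, slightly above.

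Set against the scatter of these libraries, the estimates were precise. The intervals rest on that scatter, which may in part be technical, and each covers 1 gene at a time. They do not bound an effect of the genotype across animals. Standard errors of the log2 fold change ran from 0.05 to 0.10 with a median of 0.064, against 0.088 for all tested genes. The 95% intervals of all 78 members lay inside a 1.5-fold change in either direction and those of 58 inside 1.2-fold. The widest bounds were -0.45 for Mrps6 and 0.50 for Mrpl15 on the log2 scale. Within a group the median coefficient of variation of a member was 5.39% in WT and 3.80% in KO.

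**Figure D2:**
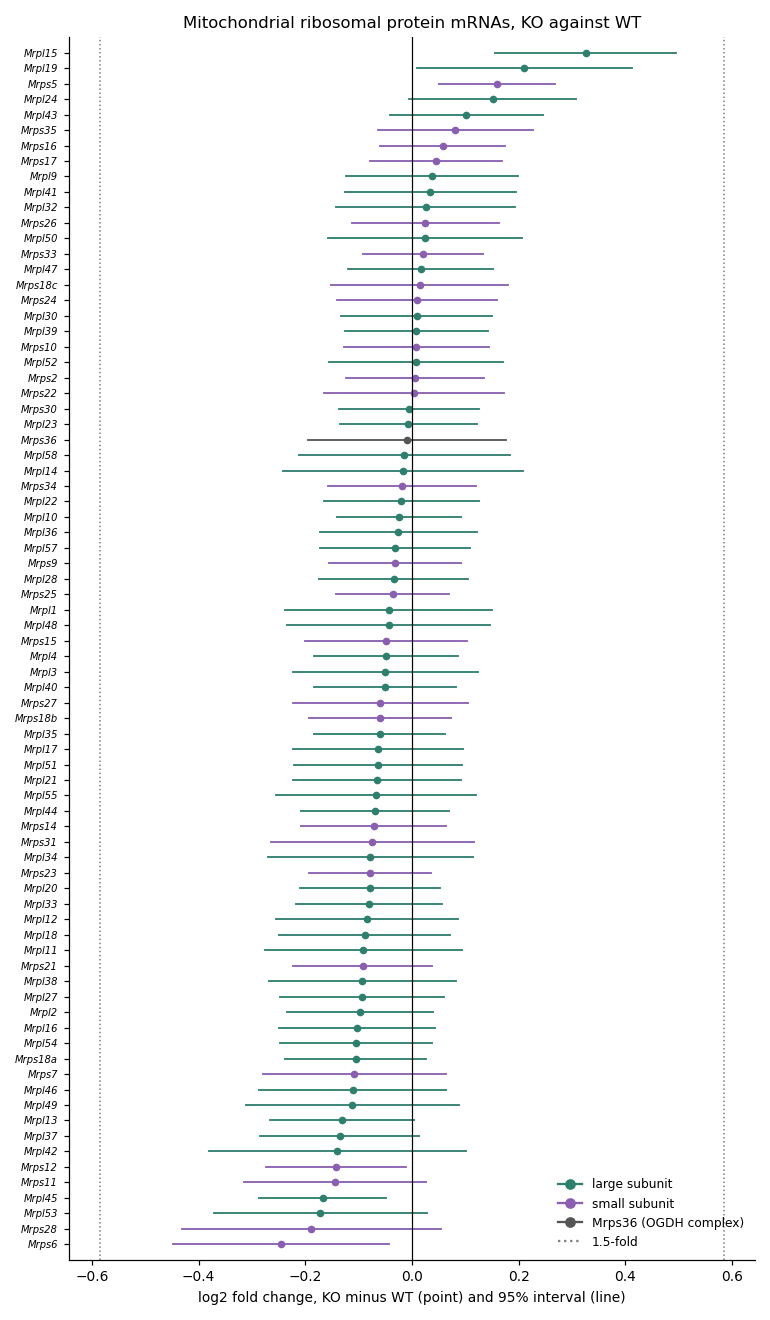
Log2 fold change of KO minus WT (point) and its 95% interval (line) for each of the 78 members, ordered by value, with the 1.5-fold limits dotted. All intervals stay inside the dotted lines, and 6 of them, those of Mrpl15, Mrps5, Mrpl19, Mrpl45, Mrps6 and Mrps12, do not touch 0.

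The family's median log2 fold change was -0.049, with 55 members below 0 and 23 above, beside a median of -0.0029 and 50.9% below 0 for all tested genes. This shift was of about the size of the SD of library medians within a group, 0.0542, and moved with the libraries numbered 1. Against the WT mean of each gene, the median member stood at 0.077, -0.039 and -0.035 in WT replicates 1 to 3 and at -0.080, -0.0036 and -0.054 in KO replicates 1 to 3 on the log2 scale. WT replicate 1 was the highest of the 6 libraries for 54 of 78 members, against 24.6% of all tested genes. KO replicate 1 was the lowest for 39 of 78, against 26.6% of all genes. The median was -0.0094 without WT replicate 1, -0.033 without KO replicate 1 and 0.015, with 45 of 78 above 0, without both. As these libraries held the highest and the lowest member median, leaving them out was bound to raise the value. Leaving out any 1 of the other libraries gave -0.065 to -0.046. The libraries numbered 1 are also those in which B cell markers (WT replicate 1) and neutrophil and macrophage markers (KO replicate 1) were highest, and the part of those cells was not tested.

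**Figure D3:**
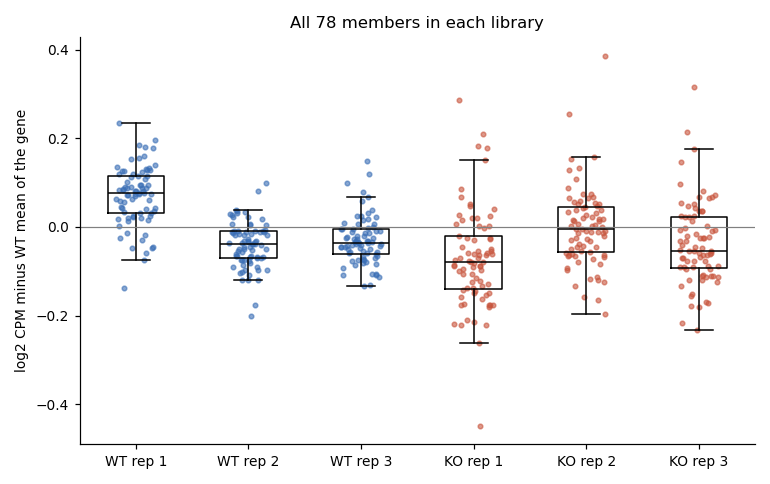
Each point is 1 of the 78 members in 1 library, as log2 CPM minus the gene's WT mean, with boxes for the median and quartiles and whiskers to the last point within 1.5 quartile ranges. WT replicate 1 sits above the other libraries (median 0.077) and KO replicate 1 lowest (median -0.080), while KO replicates 2 and 3 lie at -0.0036 and -0.054 beside WT replicates 2 and 3 at -0.039 and -0.035.

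By place in the ribosome, the large subunit, which joins amino acids, had 51 genes here, counting Mrps30 and Mrps18a, which carry small-subunit names but sit in the large subunit. Their median log2 fold change was -0.050, with 39 below 0. The small subunit, which reads the mRNA, had 26 genes and a median of -0.034, with 15 below 0. Genes with a bacterial homologue (46, median -0.049) and those found only in mitochondrial ribosomes (31, median -0.050) stood side by side. Medians were -0.084 for the 3 genes of the stalk that binds translation factors, -0.078 for 8 genes of the central protuberance and -0.014 for 8 genes around the exit of the peptide tunnel. No gene of any of these groups was called.

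Mrpl15, a large-subunit protein with a bacterial homologue, had the largest difference of the family. In order of replicate, it was at 58.0, 55.9 and 66.4 CPM in the WT libraries and at 73.1, 78.4 and 74.6 CPM in the KO libraries, so each KO library lay above each WT library. On the log2 scale Mrpl15 differed by 0.33 (SE 0.07, 95% interval 0.16 to 0.50; edgeR adjusted p = 0.111). The adjusted p of Mrpl15 was 0.00942 by DESeq2 and 0.0884 to 0.286 under the other alternatives. In GENCODE M21 (GRCm38) Mrpl15 (ENSMUSG00000033845) lies on the minus strand of chromosome 1 from 4773206 to 4785739. The tested genes around it, looked at after the value of Mrpl15 was seen, had log2 fold changes of 0.17 (Lypla1), -0.23 (Gm37988), 0.04 (Tcea1), 0.07 (Atp6v1h) and 0.17 (Rb1cc1), and none passed the test.

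Mrps5, which lines the entry of the mRNA channel in the small subunit, was at 80.8, 82.1 and 84.7 CPM in WT and 93.4, 91.8 and 91.3 CPM in KO. Its groups did not overlap either, and the log2 fold change was 0.16 (SE 0.05, edgeR adjusted p = 0.188). Mrps5 (ENSMUSG00000027374) spans 127587222 to 127606829 of chromosome 2, plus strand. Mrpl19, of the large subunit, was at 43.6, 34.5 and 41.6 CPM in WT and 45.1, 47.4 and 46.0 CPM in KO, and WT replicate 2 was lowest. Its log2 fold change was 0.21 (SE 0.09, edgeR adjusted p = 0.312), or 0.12 without WT replicate 2. Mrpl24, at the peptide exit, stood at 0.15 (SE 0.07, edgeR adjusted p = 0.348), with overlapping groups.

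Mrpl45, which anchors the ribosome to the inner membrane beside the tunnel exit, was the lower-lying member with the smallest p. It was at 72.4, 69.9 and 66.3 CPM in WT and 62.0, 62.3 and 61.4 CPM in KO, with no overlap. The Mrpl45 log2 fold change was -0.17 (SE 0.05, edgeR adjusted p = 0.2). By limma on log2(TPM + 0.1) it was -0.25 (SE 0.06, adjusted p = 0.161), so its size depended on the unit. Mrpl45 (ENSMUSG00000018882) spans 97315716 to 97329920 of chromosome 11, plus strand, just after the stretch printed above. Mrps6, a small-subunit protein and the third most abundant mRNA of the family per length, was at 95.5, 95.03 and 88.0 CPM in WT and 68.0, 84.5 and 82.5 CPM in KO. KO replicate 1 was the lowest library, and the log2 fold change of -0.25 (SE 0.09, edgeR adjusted p = 0.251) was -0.15 without it. Mrps6 (ENSMUSG00000039680) spans 92058270 to 92112227 of chromosome 16, plus strand. It overlaps Slc5a3 on the same strand, at a log2 fold change of -0.14, so its value is uncertain where counting could split reads of the pair.

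Mrps12, the decoding-centre protein whose bacterial homologue sets translational accuracy, was at 26.5, 25.6 and 25.2 CPM in WT and 23.9, 23.0 and 23.1 CPM in KO, without overlap. The log2 fold change of Mrps12 was -0.14 (SE 0.06, edgeR adjusted p = 0.3). Sars2, the mitochondrial seryl-tRNA synthetase that starts on the other side of the stretch printed above, was at 17.5, 15.7 and 18.1 CPM in WT and 16.6, 16.9 and 17.0 CPM in KO, a log2 fold change of -0.02 (SE 0.08, edgeR adjusted p = 0.921). The next lower-lying members by p, all of the large subunit, were Mrpl13 (-0.13, SE 0.06), Mrpl37 (-0.14, SE 0.06) and Mrpl53 (-0.17, SE 0.09). Their adjusted p by edgeR ran from 0.347 to 0.401. Without WT replicate 1, the highest library for both, Mrpl13 was at -0.087 and Mrpl37 at -0.070. Mrps28, the least abundant in CPM, stood at -0.19 (SE 0.10, edgeR adjusted p = 0.439), or -0.097 without WT replicate 1.

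**Figure D4:**
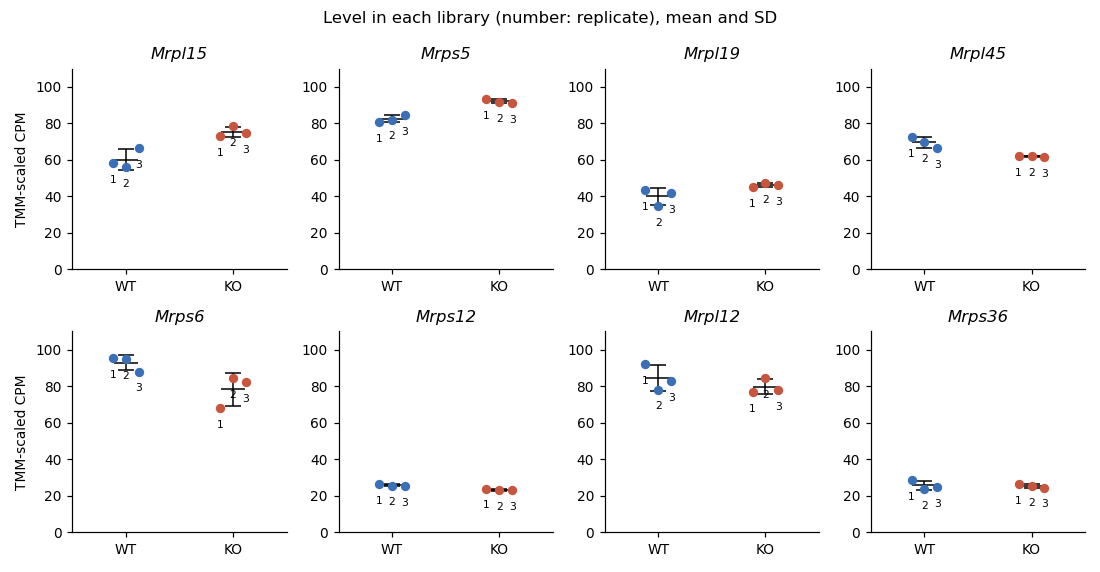
Level of 8 members in each library (TMM-scaled CPM, all panels on 1 scale from 0), with replicate numbers under the points and bars for the mean and SD of 3 libraries. The KO points of Mrpl15, Mrps5 and Mrpl19 lie above the WT points, those of Mrpl45, Mrps6 and Mrps12 lie below, and those of Mrpl12 and Mrps36 overlap with WT.

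Mrps36 was named as a ribosomal protein but is known as KGD4, a small subunit of the 2-oxoglutarate dehydrogenase complex that tethers the E3 enzyme (Dld) to the E2 core, which Dlst forms. It was at 28.4, 23.8 and 24.5 CPM in WT and 26.4, 25.3 and 24.4 CPM in KO, with overlap between groups. Its log2 fold change was -0.01 (SE 0.08, 95% interval -0.20 to 0.18, edgeR adjusted p = 0.967), and the sign turned under some settings. The other subunits stood at -0.26 (Dlst), -0.07 (Ogdh) and -0.0045 (Dld), and none passed the edgeR test. Mrps36 (ENSMUSG00000061474) lies on the minus strand of chromosome 13 from 100735955 to 100744659.

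Other members were picked for their known roles. Mrpl12, a stalk protein that also binds the mitochondrial RNA polymerase, was at 92.2, 78.1 and 83.0 CPM in WT and 76.6, 84.4 and 77.99 CPM in KO. The groups overlapped (log2 fold change -0.08, SE 0.07, edgeR adjusted p = 0.63), and the value was -0.018 without WT replicate 1. Mrpl44, which has an RNase III fold, stood at -0.07 (SE 0.06), or -0.027 without WT replicate 1. Mrpl32, whose maturation by a membrane protease is a step in ribosome assembly, stood at 0.03 (SE 0.07). Mrpl58, a peptidyl-tRNA hydrolase built into the large subunit that rescues stalled ribosomes, stood at -0.01 (SE 0.09). Mrps30 stood at -0.0051 (SE 0.06). The signs of Mrpl12, Mrpl32, Mrpl58 and Mrps30 turned when some libraries were left out.

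The 3 Mrps18 paralogues are related proteins that occupy different sites. Mrps18a, in the large subunit, was at 34.6, 34.6 and 33.1 CPM in WT and 30.2, 32.6 and 32.4 CPM in KO, lower in each KO library but not past the test (log2 fold change -0.11, SE 0.06, edgeR adjusted p = 0.429), and at -0.070 without KO replicate 1. Mrps18b and Mrps18c, both in the small subunit, stood at -0.06 (SE 0.06) and 0.01 (SE 0.07), with overlapping groups. Mrps18b was at -0.024 without WT replicate 1 and -0.025 without KO replicate 1. Per length, the order of mean TPM was the same in both groups: Mrps18c (97.0 ± 7.27 in WT, 97.9 ± 1.87 in KO), Mrps18b (94.3 ± 5.93 and 91.9 ± 4.25) and Mrps18a (67.5 ± 1.33 and 62.6 ± 2.55; SD, n = 3 each). Mrps18c and Mrps18b lay within their spread of each other in WT.

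Members were spread over 17 chromosomes. A start region shared with a diverging protein-coding gene was found in GENCODE M21 for 23 of the 78 (29.5%). Of the 12697 tested protein-coding genes 12.1% had such a partner. The starts lay at most 1000 bases apart, or both genes overlapped at their starts by at most 200 bases. All 23 partners were tested and 0 were called. The log2 fold changes of partner and member had the same sign in 13 of the 23 pairs. Among the partners were Psma2, a proteasome subunit beside Mrpl32, at -0.07, Ndufs6, a complex I subunit beside Mrpl36, at -0.09, Fau, beside Mrpl49, at 0.05, and Wdfy1, beside Mrpl44, at 0.77 (edgeR adjusted p = 0.194). The gene bodies of 21 members overlapped a tested gene on the opposite strand. Whether counting used strand is not stated, so values of these members, such as Mrpl13 (with Mtbp at -0.16), Mrpl19 (with Gcfc2 at 0.17) and Mrpl24 (with Rrnad1 at 0.17), are uncertain. Counts with decimals in at least 1 library, which can arise when reads are shared between genes, were found for 29 members, among them Mrpl45, Mrps6, Mrpl19, Mrpl13 and Mrpl24, and the other 49 had whole counts throughout.

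Other genes of mitochondrial translation were described the same way. Of the 5 ribosomal proteins without an Mrp symbol (Dap3, Ptcd3, Chchd1, Aurkaip1 and Gadd45gip1) 0 were called, and the median log2 fold change was -0.071. Aurkaip1 was at 54.8, 47.6 and 47.6 CPM in WT and 44.0, 46.4 and 42.2 CPM in KO (-0.18, SE 0.07, edgeR adjusted p = 0.305). Of 25 tested genes for ribosome assembly and rRNA modification 0 were called (median 0.0046), and of 15 translation factors 0 (median -0.0115), with Gfm1, an elongation factor, at -0.16 (SE 0.06, edgeR adjusted p = 0.3).

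Of 20 genes charging mitochondrial tRNAs 0 were called (median -0.0056). Iars2, the isoleucyl-tRNA synthetase, was at 78.3, 73.9 and 79.4 CPM in WT and 92.4, 93.8 and 93.5 CPM in KO. All KO libraries of Iars2 lay above WT (log2 fold change 0.27, SE 0.05, edgeR adjusted p = 0.0688). DESeq2 called 1 of the 20 higher. Of 14 genes for mitochondrial transcription and RNA processing 0 were called (median 0.031). Of 8 tested regulators of mitochondrial biogenesis, among them Nrf1, Gabpa, Yy1 and Myc, 0 were called, at a median of -0.030. Myc stood at 0.08 (SE 0.05, edgeR adjusted p = 0.524).

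The 13 mRNAs that the mitochondrial ribosome translates all had log2 fold changes above 0, with a median of 0.44, and 0 were called. Their summed level was 14310, 16798 and 14485 CPM across the WT libraries and 27594, 15164 and 17024 CPM across the KO libraries, so that KO replicate 1 was high and the other KO libraries lay within or just above the WT range. Without KO replicate 1 their median was 0.10.

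The 2 families most alike in size and place are set beside the mitochondrial ribosome as description only, since no test of the difference between families was made. The 85 tested cytosolic ribosomal protein genes had a median log2 fold change of 0.034, with 21 below 0 and 0 called. The 81 tested nuclear genes of the respiratory chain and ATP synthase had a median of -0.035, with 57 below 0 and 1 called, Sdhb, a subunit of succinate dehydrogenase, which fell (log2 fold change -0.34, SE 0.05, edgeR adjusted p = 0.0292). The call of Sdhb was lost in 6 of 16 alternative settings, which were the 4 fits without the second or the third library of either group, the fit with KO replicates 2 and 3 summed, and limma without a filter. Over all alternatives the log2 fold change of Sdhb ran from -0.35 to -0.32 and its adjusted p from 3.2e-06 to 0.155. Without replicate 1 of both groups these medians were 0.016 and 0.013, close to the 0.015 of the mitochondrial ribosome.

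**Figure D5:**
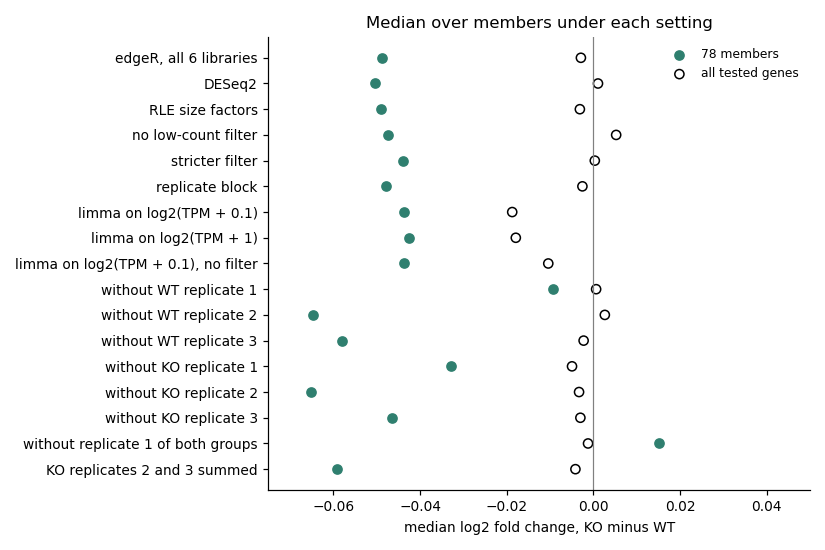
Median log2 fold change (KO minus WT) over the 78 members (filled) and over all tested genes (open) under each setting. The members lie between -0.059 and -0.043 in the settings that leave out no library, and they move to -0.0094 without WT replicate 1 and to 0.015 without replicate 1 of both groups.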

How the data were processed

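The submitters' processing notes name FastQC and HISAT2, while the counting program, genome build and annotation were not stated. The authors deposited, per the file headers, an estimated count and a TPM value per gene for each of 6 samples, 3 WT and 3 KO. Expected counts were rounded, filtered with filterByExpr (12768 of 21899 genes kept) and scaled by TMM. Genotype was tested in edgeR 4.0.16 (two-sided quasi-likelihood F test, robust, Benjamini-Hochberg adjustment over all tested genes, threshold 0.05). The standard error is the size of the log2 fold change over the root of F. Alternatives were DESeq2 1.42.0, limma 3.58.1 on log2(TPM + 0.1) or log2(TPM + 1), RLE size factors, other low-count filters, a replicate block, and fewer or summed libraries. CPM summed over lists, and of the Y-linked and the complement genes, used library totals without TMM factors. The code was tested on simulated data. Positions came from GENCODE M21, matched by Ensembl identifier. R 4.3.3, Python 3.11.15 and matplotlib 3.10.9 were used.

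Members and lists were chosen with earlier results of these data known. The rule named any called member, the 10 members of smallest p, the 3 highest and 3 lowest by fold change and by mean TPM, members with unadjusted p under 0.05 both with and without the replicate block, and 11 picked for their roles. Outside the family it named Dlst, Ogdh, Dld and up to 3 genes of smallest p in each list. Neighbouring, overlapping and partner genes, and Gabpa, Yy1 and Myc as motif factors, are named as well.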

Additional observations from a re-analysis of the deposited data

How the results depend on the processing

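Over 16 alternatives the number of called members was 0 with 1 exception, DESeq2, which called 1 (Mrpl15). It was 0 in each fit that left out 1 library. Those fits called few genes of any kind, from 4 of 13050 without KO replicate 3 to 93 of 13038 without WT replicate 1. A count of 0 members there therefore says little about the members. The fit without replicate 1 of both groups called 538 of 12782 genes and 0 members. The median log2 fold change over members ran from -0.0653 to -0.0094 when 1 library was left out, and turned to 0.0151 without replicate 1 of both groups. Of the 78 members, 39 had the same sign in all 16 alternatives and 39 did not. Among the 24 named members, without replicate 1 of both groups the sign turned for Mrpl12 (0.0104), Mrpl58 (0.0501), Mrps18b (0.0111), Mrps30 (0.0535) and Mrps36 (0.0391). With KO replicates 2 and 3 summed it turned for Mrpl30 (-0.0110), Mrpl52 (-0.0026) and Mrps36 (0.0020). Leaving out 1 library in turn gave -0.0143 to 0.0537 for Mrpl30, -0.0304 to 0.0797 for Mrpl32, -0.0061 to 0.0471 for Mrpl47, -0.0390 to 0.0679 for Mrpl52, -0.0711 to 0.0796 for Mrpl58, -0.0297 to 0.0784 for Mrps18c, -0.0459 to 0.0373 for Mrps30 and -0.0577 to 0.0694 for Mrps36. The cause was not tested. With a replicate block 0 members were called (median -0.0479), while calls over all genes went from 86 to 177. Whether the numbers pair the samples is not settled by these values. Deviations of same-numbered libraries correlated at 0.184, 0.078 and 0.084, the first being the highest of all pairs. WT replicate 3 correlated best with KO replicate 3, but so did WT replicate 2 (0.112). The 3 libraries in each group set the width of the intervals given for the members.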
